A study of Mus musculus with 8 samples.

Results

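The genes of the synaptic vesicle release machinery were followed in the NAc (nucleus accumbens) of adult male C3H/Hen mice, the part of the ventral striatum that links reward to action. Members were all spots other than controls on an Agilent mouse expression array whose gene name belonged to the synaptotagmins (Syt), synapsins (Syn1 to Syn3), vesicle-associated membrane proteins (Vamp), syntaxins (Stx), syntaxin-binding proteins (Stxbp), SNAP proteins (Snap23, Snap25, Snap29 and Snap47), complexins (Cplx), Rab3 GTPases, RIM proteins (Rims), Munc13 proteins (Unc13) or SV2 glycoproteins. This name rule used no measured value, although the members were chosen with earlier results of these data known. It gave 72 genes read by 119 probes, out of 34797 gene or transcript names and 55681 probes. The maternal separation (MS) group consisted of 4 mice that had been separated from their dams between postnatal day 2 and postnatal day 14, with unpredictable stress applied to the dams. The 4 control mice had not been separated. In both groups mice were weaned on postnatal day 21, caged with others of their strain, sex and condition, trained as adults to press a lever for sweetened milk, and fasted before the NAc was punched from frozen brain slices. Each mouse gave 1 array, made from 40 ng of total RNA, and nothing in the labels says whether mice of a group were littermates. The labels number the mice, and 3 of 4 mice in each group share the number before the point (control mice 2 to 4 and MS mice 2 to 4), which the labels do not explain. Should it stand for a litter or a cage, these mice would not be independent, and errors and p-values would then be too small.

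Neurotransmitter is released when a vesicle docks at the presynaptic membrane, is primed and fuses on the arrival of calcium. A vesicle SNARE protein of the Vamp family zips together with a syntaxin and a SNAP protein of the plasma membrane, while Munc18 proteins and Munc13 proteins prepare syntaxin for this assembly and RIM proteins and Rab3 hold the vesicle close to calcium channels. Synaptotagmins are the calcium sensors of fusion, complexins clamp and then promote it, synapsins tether the reserve pool of vesicles, and SV2 proteins are glycoproteins of the vesicle membrane. Most neurons of the NAc are medium spiny neurons, and terminals that end in the NAc belong largely to neurons of other regions, whose mRNA stays mainly in their cell bodies.

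The labelled tissue was checked against markers of its main neurons. All 12 markers of medium spiny neurons, among them Drd1, Drd2 and Ppp1r1b, had signals well above background in each of the 8 mice. So did markers listed for other regions, among them Npas1 and Pvalb (pallidal neurons) and Hcrt (hypothalamic and septal neurons). The check therefore cannot show that a punch held the NAc alone. The share of probes well above background ranged from 57.3% to 69.7% per array and was highest in control mouse 4. All arrays were on 1 slide and read in 1 scan, with 2 mice of each group in each slide row. The number of arrays, and not counting error, limits precision here.

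Values are log2 signals relative to the 75th percentile of each array, so that a value says how a probe stood on its array and levels of different probes are not compared. Where several probes read a gene, the tested probe with the highest mean level stood for it. Of the 72 genes, 68 were tested, and for every one of these the probe that stood for it exceeded background clearly on all 8 arrays. Cplx4, Stx11, Stx19 and Syt8 had no tested probe, since their signals were not well above background on enough arrays.

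The sequences below are the middle 30 bases (bases 16 to 45 of 60, written 5′ to 3′ in the sense of the transcript) of the probes on which the largest differences rest. For Rims3, Snap47 and Syt6, both probes are shown, since both enter the result. None of these stretches shares a run of 20 bases with a probe of another gene on the array.
Syt17: attcacagtgttcggccacaacatgaaaag
Vamp1: attcgttcttctgggggtgttagtccttct
Syt13: ctttggagcacaaaatcttacagtggtaaa
Stxbp6: ctgttcttttggttcactattagagcaact
Rims3, brighter probe: gcatgtacagtatttgggcaaaaaacaaaa
Rims3, dimmer probe: ttcatgggtatggcccagatcatgctggac
Snap47, brighter probe: ctgaatgtggacaagcaaaaccggcgtatg
Snap47, dimmer probe: ccagaggtcattcccatcttagaagtgcag
Syt6, brighter probe: ctgtcacagcctggagtttctattcaatta
Syt6, dimmer probe: atcaagtgtcgaaatctcaaagcaatggac

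In genome build mm9 these probes lie at chr7:125525530-125551561 for Syt17 (minus strand, a span of 26032 bases for 60 bases of probe, so that the probe crosses a splice junction), chr6:125171818-125171877 for Vamp1 (plus strand), chr2:92795818-92795877 for Syt13 (plus strand) and chr12:45953493-45953552 for Stxbp6 (minus strand). The pairs of probes start 5187 bases apart in Rims3 on chromosome 4, 20744 bases apart in Snap47 on chromosome 11 and 14269 bases apart in Syt6 on chromosome 3. Exon and UTR positions were not used here.

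The comparison of MS with control mice asked whether early separation was associated with other levels of the release machinery in the adult NAc. No member passed an adjusted p of 0.05 in limma, against 0.00439% of all genes, and the lowest adjusted p among members was 0.0909. At an unadjusted p under 0.05 in limma, 8 members were lower in MS mice (Syt17, Vamp1, Syt13, Rims3, Stxbp6, Snap47, Sv2a and Stx7), while 7.99% of all 22788 genes were lower by the same rule. In the other direction 3 members were higher (Syt6, Syt12 and Syn3), against 5.85% of all genes. MS and control values were fully separated for 9 members that were lower in MS mice, among them the 8 named above, and for 1 that was higher, Syn3, against 5.24% and 3.65% of all genes.

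The members as a whole were centred on no difference. The sign was negative in 36 and positive in 32 of the 68 genes, with a median of -0.01 against 0.00 over all genes, and 50 genes lay within 0.2 of zero on the log2 scale. Only 3 genes had a difference below -0.5, namely Syt17, Vamp1 and Syt13. The single difference above 0.5 was that of Cplx3, a complexin of ribbon and some cortical synapses, at 0.59 with a standard error (SE) of 0.57.

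**Figure D1:**
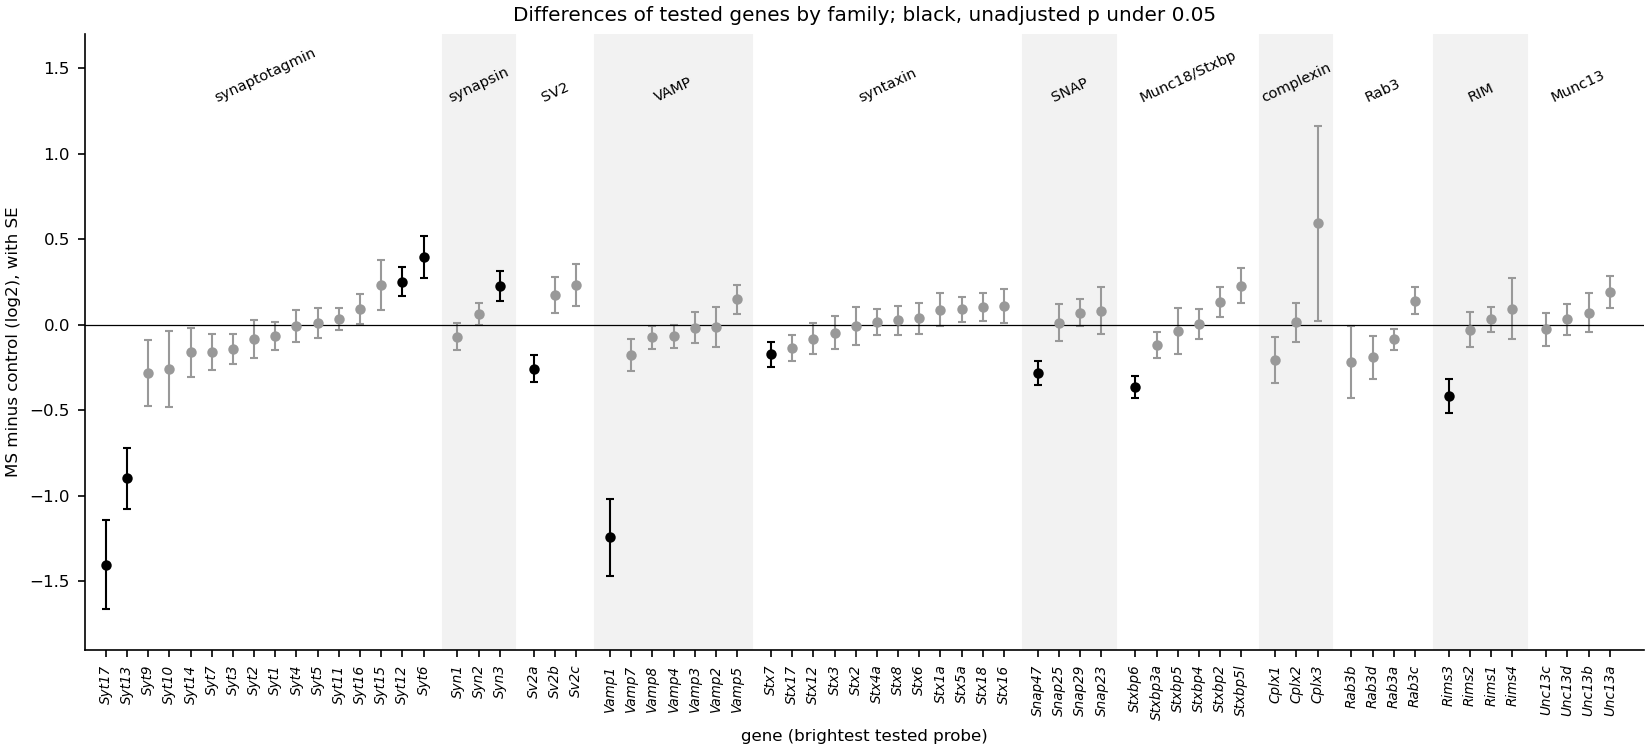
Difference between MS and control mice (log2, MS minus control, y axis) with its SE for most of the tested genes, grouped by family along the x axis. Black points have an unadjusted p under 0.05 in limma. Syt17, Vamp1 and Syt13 sit at -1.40, -1.24 and -0.90, while 50 of all 68 tested genes lie within 0.2 of zero.

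Counts in this comparison depended on how the signal was processed. With normexp background correction and in the table deposited by the study, limma put the same 4 members past an adjusted p of 0.05, Stxbp6, Syt13, Syt17 and Vamp1, all lower in MS mice, against 1.68% and 1.35% of all genes. The dimmer probe of Syt6, which did not stand for its gene, passed in the other direction in both, with adjusted p of 0.0342 and 0.0361. With a variance trend and robust moderation 6 members passed, which were these 4 with Rims3 and Snap47, against 1.72% of all genes, and the dimmer Syt6 probe passed again (adjusted p = 0.0292).

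The vesicle SNARE Vamp1, or synaptobrevin 1, is the form found mainly in fast-firing neurons of brainstem, spinal cord and parts of the basal ganglia, and it had the lowest p of the members. Its values were 2.33, 2.44, 1.68 and 2.47 in control mice 1 to 4 and 0.74, 0.65, 1.43 and 1.15 in MS mice 1 to 4. Every MS mouse was below every control, with control mouse 3 and MS mouse 3 closest to each other. The difference was -1.24 (SE 0.23, 2.36-fold lower, adjusted p = 0.0909 in limma). It was -1.70 within slide row 1 and -0.79 within slide row 2, and adjusted p over all alternatives ranged from 0.0076 to 0.286.

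Vamp2, synaptobrevin 2, is the main vesicle SNARE of forebrain synapses. Its values were 5.29, 5.07, 5.20 and 4.81 in controls and 4.90, 5.15, 5.21 and 5.06 in MS mice, which overlap almost completely, with a difference of -0.01 (SE 0.12). The other vesicle SNAREs of the list (Vamp3, Vamp4, Vamp5, Vamp7 and Vamp8) act mainly in endosomes and in cells other than neurons, and had differences between -0.18 and 0.15. Within arrays, the Vamp1 to Vamp2 log ratio was lower in each of the 4 MS mice than in all controls, by 1.23 on the log2 scale (SE 0.30, exact permutation test, two-sided p = 0.0286, the smallest that 70 arrangements can give, and 0.143 adjusted over 10 paralog pairs). The adjusted p did not pass 0.05, and it could not, since only 2 of the 10 pairs (this one and Sv2c to Sv2a) had the smallest p.

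Among the synaptotagmins, Syt1 and Syt2 were close to equal in both groups, and Syt17 and Syt13 had the largest differences. Syt1, the main calcium sensor of fast release in the forebrain, had values of 6.22, 6.45, 6.19 and 6.16 in controls and 6.14, 6.21, 6.16 and 6.24 in MS mice, a difference of -0.07 (SE 0.08). Syt2, the sensor of fast-firing synapses of the hindbrain, had a difference of -0.08 (SE 0.11), and the log ratio of Syt2 to Syt1 differed by -0.02 (exact permutation p = 0.886).

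Syt17 and Syt13 are synaptotagmins that do not serve as sensors of fast release. Syt17 was -3.42, -2.81, -3.15 and -2.15 in controls and -4.30, -4.66, -4.03 and -4.15 in MS mice. No value overlapped, and control mouse 4 stood highest. The difference was -1.40 (SE 0.26, 2.64-fold lower, adjusted p = 0.0955 in limma). The probe was dim, and its difference shrank to -0.65 in the deposited table and to -0.50 with normexp.

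Syt13 was 3.29, 3.58, 3.26 and 3.87 in controls and 2.70, 2.18, 2.83 and 2.70 in MS mice, again with no overlap and with control mouse 4 highest. The difference was -0.90 (SE 0.18, 1.86-fold lower, adjusted p = 0.106 in limma), and it was -0.99 within slide row 1 and -0.80 within slide row 2. Among the other tested synaptotagmins with a negative sign were Syt9, a calcium sensor of some striatal and limbic synapses, at -0.28 (SE 0.20), and Syt10, a sensor of peptide secretion in the olfactory bulb, at -0.26 (SE 0.22).

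Syt6, a synaptotagmin enriched in striatal and deep cortical neurons, had the opposite sign on both of its probes. The brighter probe gave 4.28, 4.35, 4.49 and 4.00 in controls and 4.45, 4.69, 4.82 and 4.75 in MS mice. Only MS mouse 1 fell within the range of the controls, and the difference was 0.40 (SE 0.12, adjusted p = 0.216 in limma). The dimmer probe gave a difference of 0.49 (SE 0.11, adjusted p = 0.129 in limma) with no overlap, and it passed an adjusted p of 0.05 in the fits named above. Syt12, a form without calcium binding that is phosphorylated on the vesicle, had a difference of 0.25 (SE 0.09, adjusted p = 0.257 in limma), with MS mouse 1 alone within the control range. Syt12 was dim, and its difference was 0.13 in the deposited table and 0.11 with normexp.

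Syt7, the sensor of asynchronous release, had probes of opposite sign, at -0.16 (SE 0.10) and 0.24 (SE 0.12). In the family as a whole, 10 of 16 tested synaptotagmins were negative and 6 positive, with a median of -0.08.

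**Figure D2:**
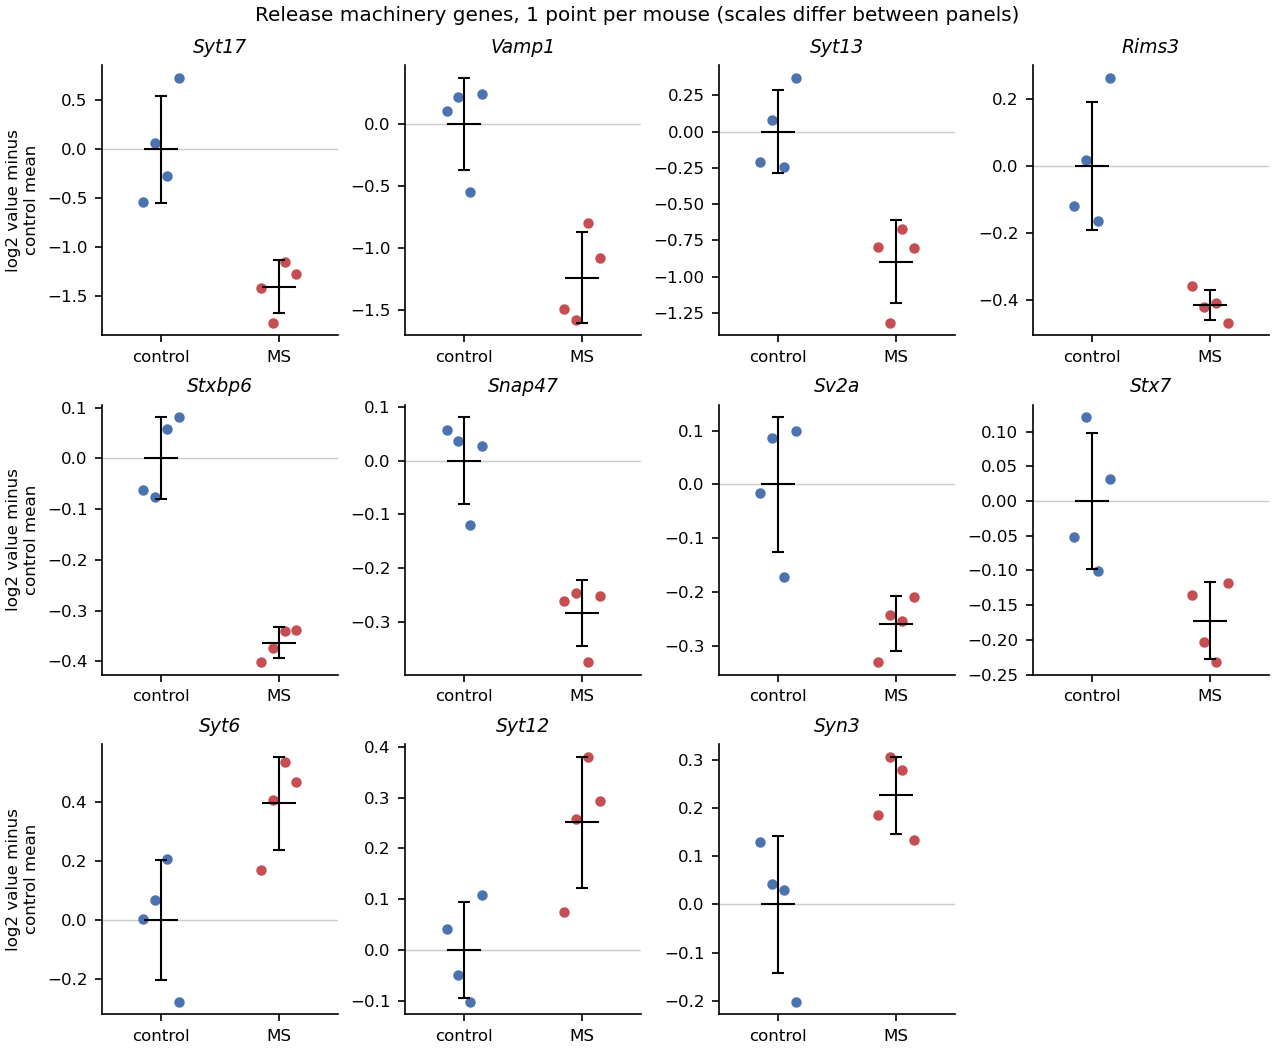
Values of the 11 members with an unadjusted p under 0.05 in limma, in each mouse (log2 value minus the control mean, y axis, with a scale of its own in each panel) for control and MS mice (x axis). Points are mice, and bars are mean and SD of 4 mice. Syt17, Vamp1, Syt13, Rims3, Stxbp6, Snap47, Sv2a and Stx7 have all MS mice below all controls, Syn3 has all MS mice above, and Syt6 and Syt12 overlap by MS mouse 1.

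Of the plasma membrane SNAREs, Stx1a, a syntaxin of the synaptic fusion complex, was close to equal in both groups with a difference of 0.09 (SE 0.10). The 13 tested syntaxins had a median of 0.01 and ranged only from -0.17 to 0.11. The lowest was Stx7, a syntaxin of late endosomes, with 2.41, 2.58, 2.36 and 2.49 in controls and 2.32, 2.25, 2.23 and 2.34 in MS mice. Its groups were separated by a narrow gap, and the difference was -0.17 (SE 0.07, adjusted p = 0.34 in limma). Stx4a, a syntaxin of postsynaptic and peripheral exocytosis, had 1 probe at 0.01 (SE 0.08) and a dimmer one at -0.29 (SE 0.09) whose groups did not overlap.

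Snap47, a SNAP protein found widely on intracellular membranes, was the SNAP member with non-overlapping groups. Its brighter probe gave 4.30, 4.28, 4.13 and 4.27 in controls and 3.99, 4.00, 3.87 and 4.00 in MS mice. Its dimmer probe gave 2.89, 2.87, 2.79 and 2.90 in controls and 2.56, 2.57, 2.56 and 2.63 in MS mice. All MS mice were lower on both probes, and the differences of -0.28 (SE 0.07) and -0.29 (SE 0.06) agreed within 0.00318 on the log2 scale, although neither passed an adjusted p of 0.05 in limma (0.148 and 0.114).

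Snap25, the synaptic SNAP protein, had a difference of 0.01 (SE 0.11) and Snap23, its form of non-neuronal cells and dendrites, one of 0.08 (SE 0.14). These values carry a limit that lies in the probe sequences. The Snap25 probe and the brightest Snap23 probe share a run of 20 bases, a CA repeat, shown in capitals within 30 bases of each probe.
Snap25, bases 1 to 30: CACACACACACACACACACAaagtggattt
Snap23, bases 24 to 53: CACACACACACACACACACAcatgaaatag
On the array 22 probes, or 0.0395% of all, held this run (its reverse complement was held by 49, none of them members), and these 22 probes followed each other from mouse to mouse. All 22 had signals well above background in each mouse, among them the probe of Fgf23, a hormone of bone. In 18 of the 22, control mouse 4 was the lowest control and MS mouse 3 the lowest MS mouse, while 8.87% of all tested probes had this pattern.

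Snap25 was one of these 18, with 5.84, 6.01, 6.02 and 5.61 in controls and 5.95, 5.94, 5.73 and 5.91 in MS mice. The Snap23 probe with the repeat was another, with 4.71, 4.995, 5.13 and 4.64 in controls and 5.15, 5.01, 4.70 and 4.94 in MS mice. The other 2 tested probes of Snap23, which lack the repeat, had differences of -0.02 (SE 0.07) and 0.11 (SE 0.10), and control mouse 4 was the highest control on both. The 22 differences between groups ran from 0.01 to 0.19 and none had an unadjusted p under 0.05 in limma. The part of the repeat in the Snap25 and Snap23 values was not tested, and Snap25 had no other probe. The log ratio of Snap23 to Snap25 differed by 0.07 (exact permutation p = 0.429) with the repeat probe, and by -0.03 (exact permutation p = 0.83) with the brightest Snap23 probe that lacks it.

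**Figure D3:**
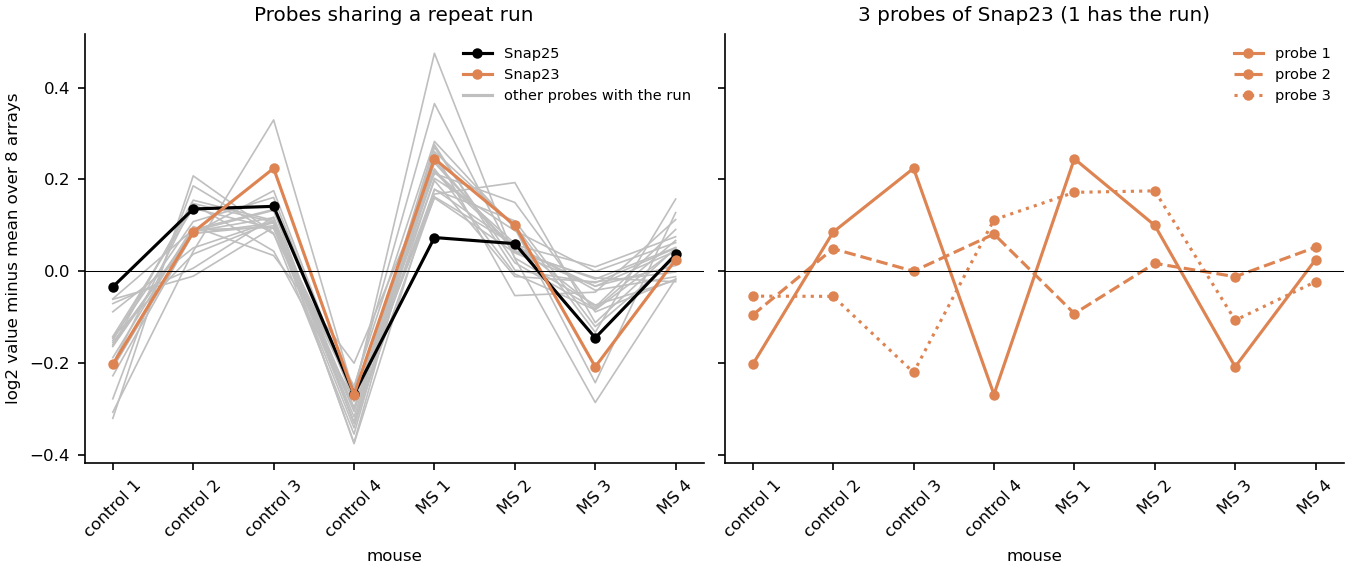
Value of each mouse (x axis) minus the mean of the probe over 8 arrays (log2, y axis). Left, the 22 probes that hold the 20-base CA repeat, with Snap25 in black, Snap23 in orange and the others in grey, and right, the 3 tested probes of Snap23. On the left the lines share a dip at control mouse 4, and on the right only the probe with the repeat (probe 1, solid line) has it.

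Of 7 tested syntaxin-binding proteins, 4 were negative and 3 positive in sign. Stxbp6, or amisyn, which binds syntaxin in place of a vesicle SNARE and slows fusion, was 2.76, 2.74, 2.88 and 2.90 in controls and 2.42, 2.44, 2.48 and 2.48 in MS mice. These groups lay far apart relative to their spread, with a difference of -0.36 (SE 0.07, adjusted p = 0.0909 in limma) that was -0.32 and -0.41 within slide rows 1 and 2.

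Stxbp5l, or tomosyn-2, another inhibitor of SNARE assembly, lay outside the naming rule because its brightest probe missed an unadjusted p of 0.05, and it is named after its values were seen. Its 4 probes had differences of 0.23 (SE 0.10), 0.20 (SE 0.08), 0.30 (SE 0.09) and 0.27 (SE 0.07), all positive, and in 3 of them the groups did not overlap. The lowest adjusted p of these probes was 0.152 in limma.

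The complexins were read by probes of uneven quality. Cplx1, the form of many fast and inhibitory synapses, had a difference of -0.21 (SE 0.13), which was -0.11 without MS mouse 1 and -0.32 without MS mouse 3. Cplx2, the form of most forebrain excitatory and striatal synapses, had 5 probes with differences from 0.01 to 0.10, but 4 of these probes are made of purine repeats that also occur in the probes of 4 to 16 other names on the array. Ranked from the brightest down, probes 2 to 4 of the repeat kind and probe 5, which is no repeat, had these middle 30 bases.
Cplx2, probe 2: gagaaggaggaggaggaggaggagaaggag
Cplx2, probe 3: aggaggaggaggaggaggaggaggaggaga
Cplx2, probe 4: gaggagaaggaagaggaggaggaggagaag
Cplx2, probe 5: atgcaaatgctaagatgatgtacaaaacca
Probe 3 is placed at chr13:108816800-108816859 and probe 4 at chr5:112438094-112438174 by the array annotation, whereas probe 5, which shares no run of 20 bases with a probe of another gene, lies at chr13:54485200-54485259, in the same stretch of chromosome 13 as probe 2.

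Probe 5 alone gave 7.01, 6.99, 7.04 and 6.59 in controls and 6.80, 7.03, 7.15 and 7.06 in MS mice. The groups overlapped, with control mouse 4 lowest, and the difference was 0.10 (SE 0.12). The log ratio of Cplx1 to Cplx2 differed by -0.22 with the brightest Cplx2 probe (exact permutation p = 0.286; -0.36 to -0.12 with a mouse left out) and by -0.31 with probe 5 (exact permutation p = 0.0571, 0.19 adjusted over 10 pairs). Of all 119 member probes, 8 shared a run of 20 bases with a probe of another gene, and besides those of Snap23, Snap25 and Cplx2 these were 1 each of Stxbp2 and Syt11.

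Of the proteins that tether and prime vesicles, Rims3 was the outlying one. It encodes a short RIM form without the Rab3-binding part. The brighter probe was 4.32, 4.46, 4.28 and 4.70 in controls and 4.08, 4.02, 4.03 and 3.97 in MS mice, with no overlap and with control mouse 4 highest. The difference was -0.41 (SE 0.10, adjusted p = 0.142 in limma), and the dimmer probe gave -0.62 (SE 0.16, adjusted p = 0.152 in limma) with no overlap either. With normexp the difference of the dimmer probe shrank to -0.21 (adjusted p = 0.206 in limma), and the deposited table did not hold this probe. Without control mouse 4 the difference of the brighter probe was -0.33.

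The long RIM forms, which hold Rab3, Munc13 and calcium channels together, differed less. The brighter probe of Rims1 gave 0.03 (SE 0.07) and its dimmer probe -0.23 (SE 0.09) with no overlap, and Rims2 gave -0.03 (SE 0.10). The log ratio of Rims2 to Rims1 differed by -0.06 (exact permutation p = 0.657). Rab3a, the main Rab3 of synaptic vesicles, had a difference of -0.09 (SE 0.06) and Rab3b, an isoform of inhibitory and some dopamine neurons, one of -0.22 (SE 0.21). The Rab3b value was -0.73 within slide row 1 and 0.29 within slide row 2, and the log ratio of Rab3b to Rab3a differed by -0.13 (exact permutation p = 0.6).

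Munc13 proteins open syntaxin for SNARE assembly. Unc13a, the main form of forebrain synapses, had a difference of 0.19 (SE 0.09) on its brighter probe and -0.12 (SE 0.09) on its dimmer one. Unc13c gave -0.03 (SE 0.10), and the log ratio of Unc13c to Unc13a differed by -0.22 (exact permutation p = 0.229).

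The SV2 glycoproteins differed in sign from each other. Sv2a, present at nearly all synapses, was 3.08, 3.19, 2.93 and 3.20 in controls and 2.77, 2.86, 2.85 and 2.89 in MS mice, with no overlap and a difference of -0.26 (SE 0.08, adjusted p = 0.215 in limma). Sv2c, the form enriched in striatum and basal ganglia, was 2.09, 2.20, 2.11 and 1.83 in controls and 2.02, 2.54, 2.35 and 2.25 in MS mice. Its groups overlapped by MS mouse 1, with a difference of 0.23 (SE 0.12), and its 3 probes ranged from 0.23 to 0.32.

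The log ratio of Sv2c to Sv2a was higher in each of the 4 MS mice than in all controls, by 0.49 (SE 0.15, exact permutation test, two-sided p = 0.0286, and 0.143 adjusted over 10 pairs). Sv2b, the form of many excitatory neurons, had a difference of 0.17 (SE 0.10).

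**Figure D4:**
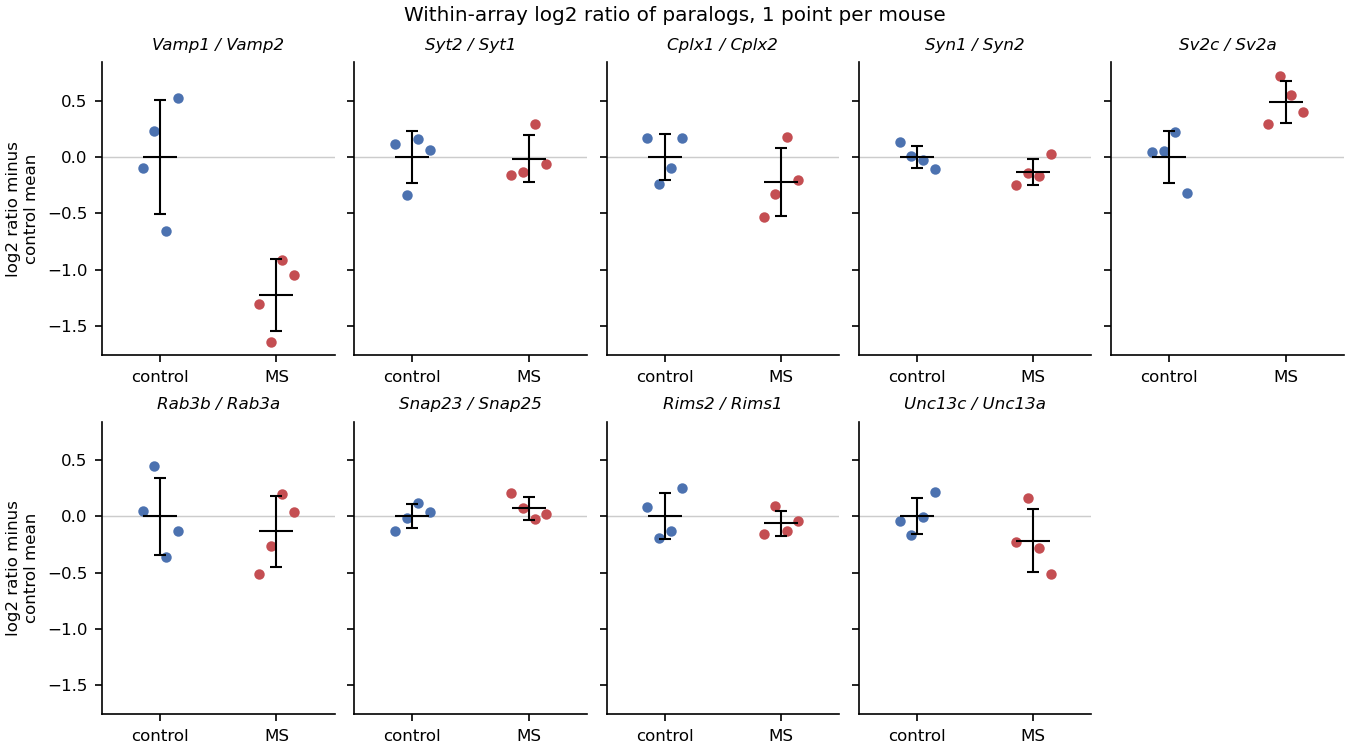
Within-array log2 ratio of pairs of paralogs minus its control mean (y axis, 1 scale for all panels) in control and MS mice (x axis). Points are mice, and bars are mean and SD of 4 mice. Vamp1 to Vamp2 is lower by 1.23 and Sv2c to Sv2a higher by 0.49 with no overlap, and the groups overlap in the other pairs shown.

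The synapsins were near zero for the abundant forms. Syn1 had a difference of -0.07 (SE 0.08) and Syn2 of 0.06 (SE 0.07), and the log ratio of Syn1 to Syn2 differed by -0.13 (exact permutation p = 0.143). The dimmer probe of Syn2 gave -0.19 (SE 0.09). Syn3, a synapsin of developing neurons and dopamine terminals, was 0.71, 0.63, 0.61 and 0.38 in controls and 0.77, 0.89, 0.86 and 0.72 in MS mice on its brightest probe. The MS mice were higher by 0.23 (SE 0.09, adjusted p = 0.305 in limma), with a gap to the controls of under 0.01. Its other tested probes gave -0.17 (SE 0.09, with no overlap and MS mice lower) and -0.10 (SE 0.14).

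How far a gene's probes agreed varied over the members. In 28 genes with 2 or more tested probes (68 probes), 14 had probes of opposite sign, and in 19 the differences lay within 0.2 of each other. Of the genes with probes of opposite sign, the widest spans were in Syt7 (0.40 between probes), Syn3 (0.40), Unc13a (0.31), Stx4a (0.30), Rims1 (0.26) and Syn2 (0.25). The 3 probes of Stx3 had 1 sign but spanned 0.33, from -0.38 to -0.05. In 4 genes, Rims3, Snap47, Stxbp5l and Syt6, at least 2 probes had an unadjusted p under 0.05 in limma, all probes of each having 1 sign. The same shares over all genes of the array with several probes were not computed. These counts therefore do not show whether probes of members agreed more or less than those of other genes. Vamp1, Syt13, Syt17, Stxbp6, Sv2a, Stx7 and Syt12 rested on 1 tested probe each.

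**Figure D5:**
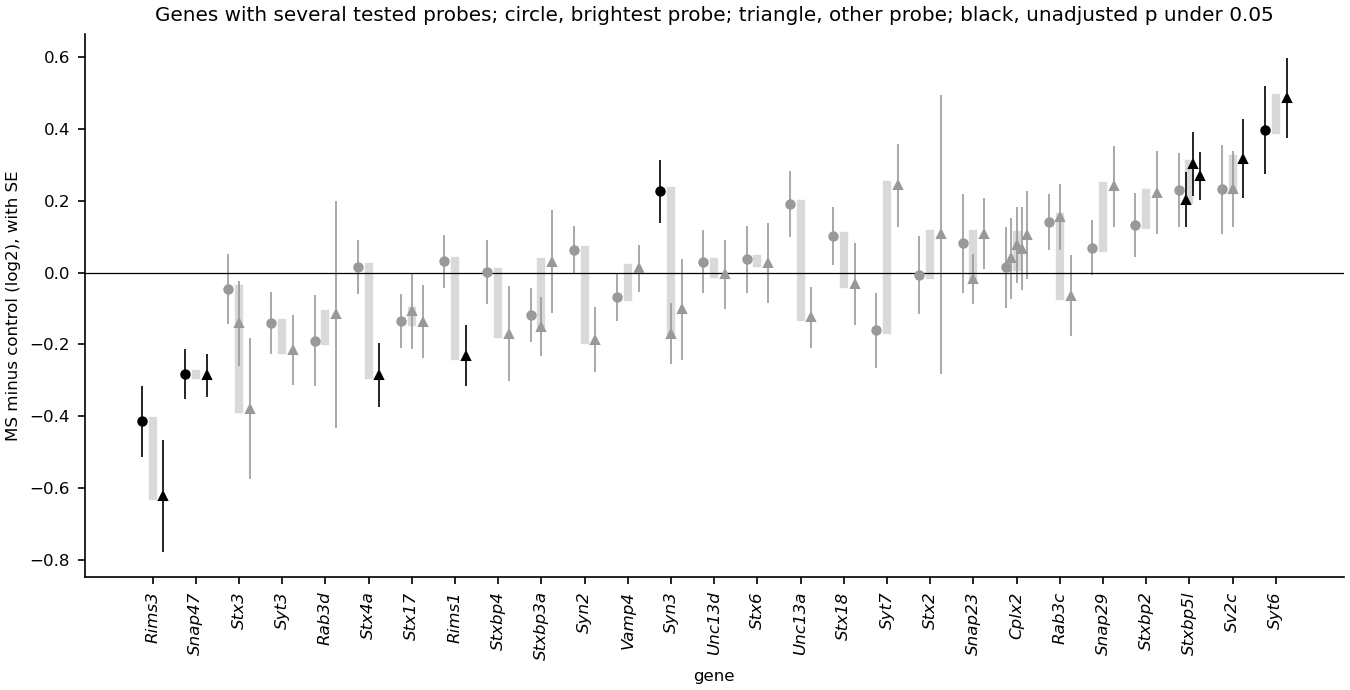
Difference between MS and control mice (log2, y axis) with its SE for every tested probe of genes (x axis) that had several. Circles are the brightest probe of a gene and triangles its other probes, black for an unadjusted p under 0.05 in limma, and grey bars span the probes of a gene. Rims3 and Snap47 lie below zero and Stxbp5l, Sv2c and Syt6 above zero on all their probes, while Syn3, Unc13a, Syn2 and Syt7 cross it.

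Marker levels of several cell types also lay apart between the groups. The level of a list is the mean over its genes of each value minus that gene's own mean over the 8 arrays. For 10 markers of pallidal neurons it was 0.20 to 0.72 in controls and -0.81 to -0.06 in MS mice. It did not overlap, and 7 of the 10 were negative, among them Npas1 at -2.26 (SE 0.36), Pvalb at -2.07 (SE 0.50) and Kcnc2 at -1.45 (SE 0.29). The list was chosen with earlier results of these data known, and the study had reported Npas1 and Pvalb as changed in these mice. The gap between the groups is therefore no independent result. Without Npas1 the other 9 gave 0.16 to 0.61 in controls and -0.72 to -0.05 in MS mice. The markers with a positive sign were Kcna1, Kcnc1 and Lhx6, and the brightest Lhx6 probe is one of the 22 with the CA repeat. Spp1 was well above background in 2 mice of each group, and the other 9 in all 8 mice.

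The 12 markers of medium spiny neurons were all positive, with list levels of -0.54 to 0.08 in controls and -0.03 to 0.27 in MS mice, and control mouse 4 was lowest. Lists of hypothalamic and septal neurons (6 of 7 tested genes negative, -0.03 to 0.65 against -0.44 to 0.04), astrocytes (5 of 8 negative, 0.05 to 0.33 against -0.33 to -0.10) and oligodendrocyte precursors (5 of 5 negative, 0.03 to 0.40 against -0.21 to -0.12) were lower in sign. The astrocyte level rested largely on Agt, angiotensinogen, at -1.999 (SE 0.26), and without it the other 7 genes gave -0.05 to 0.15 in controls and -0.14 to -0.01 in MS mice, which overlap. Interneurons, oligodendrocytes and microglia were negative in 7 of 7 genes each and cholinergic neurons in 3 of 3, with levels that overlapped between the groups, and the levels of blood vessels and of choroid plexus and ependyma overlapped too. Of 8 markers of cortical excitatory neurons 5 were tested, and Slc17a7 and Neurod6 had no tested probe. The part of these cell types in the differences of Vamp1, Syt13, Syt17, Syt6 and the other members was not tested. In punched tissue, fewer cells of a type, less RNA per cell and a punch taken at another place cannot be told apart. The sources used here do not give the place of each punch. Both groups were fasted, and a direct effect of separation cannot be told apart from an unequal response to fasting. Nor can it be told apart from an effect of the amount of sweetened milk taken.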

How the data were processed

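RNA from NAc punches of 4 control and 4 MS mice was labelled with Cy3 and hybridised to 1-colour Agilent arrays. The deposited scanner files hold spot intensity on a linear scale, made by the authors with Agilent Feature Extraction 10.10.1.1, per the submitters' processing notes. A second file from the authors, with log2 values of 31261 probes as deposited, was used as an alternative. It followed the log2 mean signal, and its array medians lay between 8.010 and 8.012. Its values had thus been aligned between arrays, by a normalization not given in the sources used here. The submitters' notes also name limma, with no version. Coordinates are those of the file headers (mm9). The array design in the headers is not the one named in the methods of the study.

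Control spots and outlier spots (122 to 189 per array) were left out, spots of a probe were averaged, and the 75th percentile of each array, over its non-control spots, was subtracted from the log2 processed signal. Tests covered the 33111 probes that were well above background on 4 or more arrays and were made with limma 3.58.1 (lmFit, eBayes) in R 4.3.3, with Benjamini-Hochberg adjustment over all of them. The steps were tested on simulated data. Paralog pairs were compared by exact permutation of 8 mice, two-sided. Gene shares count 1 probe per gene over 22788 names.

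The members, lists and naming rule were chosen with earlier results of these data known. The rule named members with an unadjusted p under 0.05 (up to 12 in each direction), core genes of release listed by name, up to 6 genes whose probes disagreed in sign, any member well above background in 1 group only (none was found), and up to 3 other vesicle genes in each direction. Alternatives changed the background correction, scaling, dim-probe filter, variance moderation, slide row or column as a block, the probe of a gene, and the mice included. Stxbp5l, Syt9, Syt10, Cplx3, Stx3, Vamp3, Vamp4, Vamp5, Vamp7 and Vamp8 fell outside this rule and were named after their values were seen. Stxbp2, Syt11 and Fgf23, named for their shared probe runs, also fell outside it. Snap23, Snap25 and Cplx2, whose probes share such runs, were among its core genes. The search for runs of 20 bases shared between probes, a random block for the number before the point in the labels (duplicateCorrelation) and marker lists without their largest gene were added after the values were seen. Results on some genes and 1 probe sequence are not reported here.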

Additional observations from a re-analysis of the deposited data

Results flagged for a closer look

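Among the 31 named members, each taken in control and in MS mice (62 groups of 4), 2 values stood apart from the other 3 of their group by Dixon's criterion, which chance alone meets in about 1 of 20 groups. Snap25 was 5.73 in MS mouse 3, below the 5.91 to 5.95 of the other MS mice, and this probe holds the CA repeat. Snap47 was 3.87 in MS mouse 3, below 3.99 to 4.00 in the others.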

How the results depend on the processing

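The number of probes on the array past an adjusted p of 0.05 in limma, 1 as reported, was 486 with normexp, 375 in the deposited table, 81 with median scaling, 113 with the stricter filter, 504 with a variance trend, 0 without a filter and 0 with slide column as a block. It was 0 to 37 with 1 mouse left out (37 without control mouse 3). Members past it numbered 4, 4 and 6 with normexp, in the deposited table and with the trend, and 0 to 0 with a mouse left out. Members higher at an unadjusted p under 0.05 numbered 5 with the trend and 2 to 6 with a mouse left out (6 without control mouse 2 or MS mouse 1). With the number before the point as a random block, added after the values were seen, the consensus correlation was -0.11, and the block made errors smaller. With 3 mice of each group sharing a number, this estimate cannot show whether those mice were independent. Under this block 443 of the 33111 tested probes and 4 members passed an adjusted p of 0.05 in limma. By the same fit 5 members were higher at an unadjusted p under 0.05, and Vamp2 was 0.00796. Shares over all genes were not computed under this block. The signs of other small values turned. Syt2 to Syt1 was 0.0754 in the deposited table, 0.0325 with quantile normalization and -0.129 to 0.0351 with a mouse left out. Rims2 to Rims1 was 0.0698 with the mean of probes and -0.127 to 0.0210 with a mouse left out, Rab3b to Rab3a was -0.254 to 0.0154, and Snap23 to Snap25 was -0.0298 with the probe without a repeat. With normexp, Rims1 was -5.52e-05, Unc13c 0.00641 and Vamp2 0.0205. In the deposited table Cplx2 was -0.0437, Snap25 -0.00655, Stx4a -0.0345, Syt2 0.00215 and Vamp2 0.00494. With median scaling Rims2 was 0.00878, Unc13c 0.0132 and Vamp2 0.0240, and with quantile normalization Cplx2 was -0.000328 and Stx4a -0.00670. With the mean of probes Rims1 was -0.10, Stx4a -0.14, Syn2 -0.0613, Syn3 -0.0153 and Syt7 0.0411, and Snap23 was -0.0174 on a probe without the repeat. With a mouse left out, the ranges were -0.0540 to 0.121 for Cplx2, -0.0130 to 0.0684 for Rims1, -0.0834 to 0.0292 for Rims2, -0.0747 to 0.0629 for Snap25, -0.0249 to 0.0581 for Stx4a, -0.0929 to 0.0233 for Unc13c and -0.110 to 0.0519 for Vamp2. The cause was not tested. Vamp1, Syt13, Syt17, Stxbp6, Rims3, Snap47, Sv2a, Stx7, Syt6 and Syt12 kept their sign under every alternative run. These genes all had an unadjusted p under 0.05 in limma on the same arrays. In the 8 that were lower in MS mice the groups did not overlap, so leaving out a mouse could not turn their sign. With a mouse left out, Vamp1 to Vamp2 lay between -1.44 and -1.05 and Sv2c to Sv2a between 0.38 and 0.56, in a design too small to pass the threshold. For dim probes the size depends on the background correction, as given above for Syt17, Syt12 and the dimmer Rims3 probe. No paired analysis was possible because no mouse number of the labels occurs in both groups. The digits 2 and 4 after the point recur in both without a stated meaning, and the replicate numbers used here only name the mice.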

Other observations

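Other genes of the vesicle cycle, taken from a list of 62 of which 61 were tested, were also read. At an unadjusted p under 0.05 in limma, 12 of the 61 were lower and 4 higher in MS mice, while 7.99% and 5.85% of all genes were lower and higher by this rule, and none passed an adjusted p of 0.05. The vesicle membrane and transporter genes were negative in 13 of 15 (median -0.11), and the active zone scaffold genes were positive in 8 of 11 (median 0.11). The lowest was Slc17a6, the vesicular glutamate transporter of subcortical neurons, at -2.82 (SE 0.79). Its values were -1.37, -1.61, -2.04 and -0.73 in controls and -5.00, -6.35, -2.24 and -3.42 in MS mice. In MS mice the signal was well above background in 3 of 4 mice, and the SD was 1.80 against 0.55 in controls. The size of this difference is thus uncertain, and its value under other background corrections is not given here. Slc17a6 was followed by Sncg, gamma-synuclein, at -1.05 (SE 0.29) and by Doc2a, a calcium sensor of spontaneous release, at -0.87 (SE 0.12). The highest were Doc2b, a relative of Doc2a, at 0.29 (SE 0.08), Rimbp2, a RIM-binding scaffold protein, at 0.27 (SE 0.10), and Bsn, the scaffold protein bassoon, at 0.25 (SE 0.11). The 18 genes of vesicle endocytosis held no gene with an unadjusted p under 0.05 in limma, and their median was -0.00442.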
